A study of Homo sapiens with 10 samples.

Results

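In IMR-32 cells, poly(A) 3′-seq gave 178392 peaks on chromosomes 1 to 22, X and Y, of which 5919 (3.32%, 95% Wilson interval 3.24% to 3.40%) lay inside 3′ UTRs where no transcript is annotated to end. IMR-32 cells come from a human neuroblastoma, a tumour of the sympathetic lineage. Of 20 transcription factors of that tumour's adrenergic state, all 16 with an eligible 3′ UTR stretch had a peak at an annotated end. The share was 64.9% over the 11786 protein-coding genes with such a stretch. Peaks at annotated ends were counted here only where no gene or end window of the opposite strand overlapped. The assay reads polyadenylated RNA inward from its 3′ end, so that reads pile up just upstream of a cleavage site. A peak was counted as an unannotated 3′ UTR peak when its summit, the base with the most reads, lay in a 3′ UTR exon part of a protein-coding transcript of GENCODE 44. The summit also had to lie outside every coding segment and at least 200 bp ahead of, or 600 bp beyond, every annotated transcript end, in genes of 1 strand only. These peaks were 22.2% of the 26628 peaks with a summit in a 3′ UTR. Of the others, 19229 lay in a window of a transcript end, 1004 had genes on both strands and 476 overlapped coding sequence.

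The peak list was made from the pooled reads of 10 libraries of puromycin-selected cells carrying a lentiviral shRNA: 4 libraries with shCDK12 (shRNAs sh22 and sh98, 2 libraries each), 4 with shCDK13 (sh701 and sh704, 2 libraries each) and 2 with an shRNA against GFP as control. CDK12 and CDK13 are kinases that phosphorylate RNA polymerase II during transcription elongation. The list holds 1 value per peak and none per library, so the knockdowns could not be compared with the control, no library depth was known, and no value below has a replicate error. All intervals cover counting error over peaks, genes or sites, which are not replicates, and no p-value was computed.

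Most human genes end their mRNA at a poly(A) signal, a hexamer such as AATAAA or its most frequent variant ATTAAA, which the cleavage and polyadenylation specificity factor binds. The RNA is cut a short distance downstream of the hexamer, usually ahead of a stretch rich in U or GU that binds the cleavage stimulation factor. Many genes carry several such signals in one 3′ UTR, and use of an upstream one shortens the 3′ UTR and removes sites for microRNAs and RNA-binding proteins. Neurons are known for long 3′ UTRs. A stretch of A in the RNA itself can also bind the oligo(dT) primer, which gives a peak at a place where the RNA was not cut.

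Below, a core signal is AATAAA or ATTAAA that starts 15 to 35 bases upstream of the 3′ edge of the peak, which is its last base on the strand of the gene. A peak is called A-rich when at least 7 of the 10 genomic bases after that edge are A, and A-poor otherwise. The rule above used neither feature. The study removed peaks with a genomic run of A downstream and no poly(A) signal upstream, and 74 of the 5919 peaks met those criteria as searched here and were still in the list, as were 6958 of 94377 intronic peaks (7.37%), 141 of 16352 terminal peaks, at annotated ends, and 8 of 4897 coding-sequence peaks. The list was thus used as not filtered in this way. Without these 74, the share with a core signal given below was 38.6% and the A-rich share 23.6%. Both kinds are shown here by the 30 bases next to the edge, from GRCh38, 5′ to 3′ on the strand of the gene. The first set shows 6 peaks with a core signal in an A-poor setting, as the bases up to and including the 3′ edge, with the hexamer in capitals:

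SRPRB, chr3:133820499-133820801, plus strand: caATTAAAtagaatgtaatggtgagtacaa
SOX11, chr2:5695320-5695636, plus strand: caattttAATAAAtcagctggaactgatag
ST13, chr22:40826008-40826360, minus strand: atttcAATAAAactaattgggaccacccgt
NAA50, chr3:113718838-113719125, minus strand: taaaatcATTAAAataggccaagtgtaatt
HNRNPA2B1, chr7:26191839-26192208, minus strand: tttAATAAAataattctaaaggaaattgtg
CDK12, chr17:39533859-39534033, plus strand: ctATTAAAtacattattttgaacagatgag

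The second set shows 3 A-rich peaks with none of 12 known poly(A) signal hexamers, as the bases that follow the 3′ edge, with the 10 counted bases in capitals:

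LRATD1, chr2:14637955-14638220, plus strand: AAAAAAAAAAaaaactatagaatttacgta
UBE2H, chr7:129832718-129832901, minus strand: AAAAAACTGAatagaccccagtttcgggaa
NFIB, chr9:14086786-14086956, minus strand: AAAAACAAAAaaatacaacaaagtgacatc

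The 5919 peaks lay in 3609 genes, 3048 on the plus and 2871 on the minus strand. Of these genes, 2162 had 1 such peak, 899 had 2, 343 had 3 and 205 had at least 4. The stretches of 3′ UTR in which a peak could count as unannotated made up 20039172 bases of the 40.4 Mb of 3′ UTR of protein-coding genes. The median peak was 119 bp wide, had a pileup of 16 reads at its summit and a deposited fold of 6.80. That fold is the pileup plus 1 over the local background plus 1, which lowers it where the background is near 1 read. The pileup is the number of extended reads over the summit after the default of the peak caller has kept 1 read per position and strand. It therefore counts distinct positions and levels off where many reads share one, and it is not a count of RNA molecules. The pileup ran from 3 to 85, with percentiles 10 and 90 at 8 and 31 reads. It was compared with that of 16352 terminal peaks, which lie in the window of an annotated end of a protein-coding gene, of 4897 peaks in coding sequence and of 94377 intronic peaks. Terminal peaks were counted only where no gene or end window of the opposite strand overlapped the summit. Each was given to 1 gene, the longest where windows were shared. A gene without a terminal peak can thus still have a peak at its annotated end. The median pileup was 17 reads for terminal peaks, 12 for coding-sequence peaks and 8 for intronic peaks. Terminal peaks had a higher median fold of 8.73 and a median −log10 q-value of 13.1 against 9.51, and their percentile 90 of pileup was 36 reads. The local background was higher around them, with a median of 1.35 reads against 0.95 at terminal peaks. The −log10 q-value was 5 or more for 5166 of them (87.3%), against 73.2% of all chromosomal peaks.

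The rule places the summit, not the 3′ edge, and 317 of the 5919 peaks had their 3′ edge inside the window of an annotated end. Whether such peaks hold reads of the annotated end was not tested. Leaving them out gave a share with a core signal of 37.4%, which lies within the interval of the value over all peaks given next. At the border of the rule, the 196 peaks 201 to 250 bp upstream of the nearest annotated end had a median pileup of 19 and a core signal in 50.5%. The 410 terminal peaks 151 to 200 bp upstream of one had a median pileup of 16 and a core signal in 43.2%.

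A core signal preceded 2256 of the 5919 unannotated 3′ UTR peaks (38.1%, 36.9% to 39.4%). The share was 55.4% at terminal peaks, a difference of −17.3 percentage points (95% Newcombe interval −18.7 to −15.8). It was 6.09% at coding-sequence peaks and 10.1% at intronic peaks, so that the unannotated 3′ UTR peaks stood 32.0 points (30.6 to 33.4) and 28.0 points (26.7 to 29.2) higher. The same search at every position of the eligible 3′ UTR stretches, with no regard to peaks, found a core signal at 2.83% of positions. With distances counted from the summit, the shares were 4.11% at unannotated and 3.78% at terminal peaks, a difference of 0.33 points (−0.24 to 0.93). On the opposite strand of the same peaks it was found at 5.71%. With any of the 12 hexamers that the study lists as poly(A) signals, the share was 57.1% at unannotated 3′ UTR peaks, 68.8% at terminal peaks and 11.7% over all eligible positions.

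**Figure D1:**
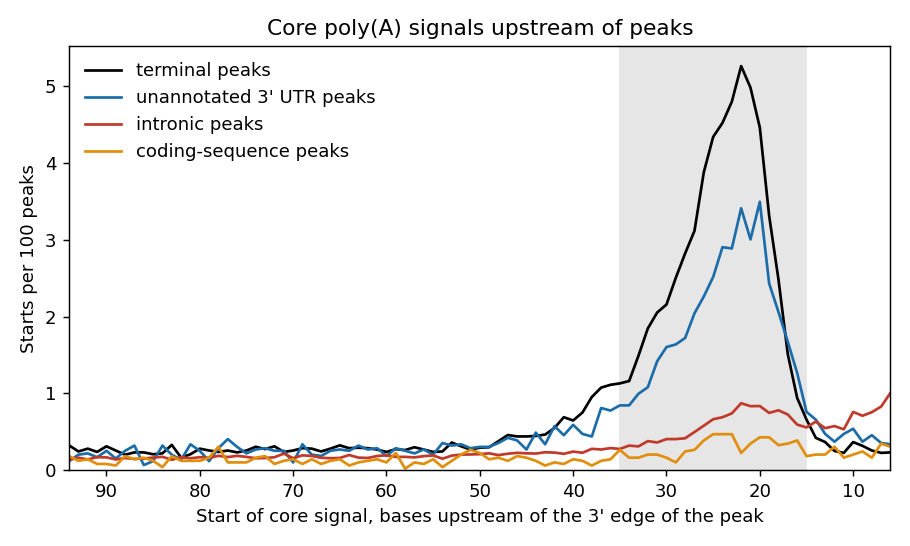
Starts of AATAAA or ATTAAA per 100 peaks (vertical axis) against the number of bases upstream of the 3′ edge (horizontal axis), with 1 line per class of peaks and the window of 15 to 35 bases in grey. The unannotated 3′ UTR peaks reach 3.50 starts per 100 peaks at 20 bases and the terminal peaks 5.27 at 22 bases, while intronic and coding-sequence peaks stay low inside the window.

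The hexamers also stood at the distance that is usual for cleavage. AATAAA started most often 20 bases upstream of the 3′ edge of unannotated 3′ UTR peaks (147 peaks) and 22 bases upstream of that of terminal peaks, and ATTAAA 20 and 21 bases. AATAAA was found in the window of 27.5% of the unannotated peaks and 1.58% of all eligible positions, a ratio of 17.4. ATTAAA was found at 11.5% and 1.30%, a ratio of 8.88. The weaker variants AGTAAA and TATAAA were found at 4.05% and 4.98% of the peaks, 4.71 and 3.87 times their share of positions. The remaining 8 hexamers ranged from a ratio of 3.24 for AATATA to 1.82 for AATAGA. Terminal peaks had AATAAA more often (43.6%), and ATTAAA as well (13.4%, difference −1.89 points, −2.84 to −0.91).

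Most signals in these stretches had no peak. In genes with a terminal peak, the eligible stretches held 11486 occurrences of AATAAA, and 1390 of them (12.1%, 11.5% to 12.7%) had an unannotated peak whose 3′ edge lay 15 to 35 bases after the start of the hexamer. The share was 6.05% (5.58% to 6.55%) for the 9178 occurrences of ATTAAA, 3.31% for AGTAAA, 2.54% for TATAAA and 1.14% for AATAGA, against 0.699% for an arbitrary position of the same stretches. Among occurrences with neither AATAAA nor ATTAAA within 50 bases besides themselves, AATAAA kept 12.2% and ATTAAA 6.05%, while AGTAAA had 2.81% and TATAAA 1.97%.

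The sequence beside AATAAA differed between sites with and without a peak. In the 40 bases from 25 to 64 after the start of the hexamer, where the U- and GU-rich element lies, T made up 36.1% ± 10.0 (SD, 1390 sites) of the bases at sites with a peak and 32.0% ± 9.75 (SD, 10096 sites) at sites without, a difference of 4.13 points (3.57 to 4.68). A was lower by 3.24 points at sites with a peak (difference −3.24, −3.80 to −2.68), and C differed by −0.19 points (−0.65 to 0.27) and G by −0.69 (−1.13 to −0.26). TGTG in this window was present at 22.1% of sites with and 16.5% of sites without a peak (difference 5.62 points, 3.40 to 7.99), and at 18.9% of all eligible positions. TGTA, the DNA form of UGUA, the motif bound by the cleavage factor Im subunit encoded by NUDT21, stood within 100 bases upstream of the hexamer at 52.7% of sites with and 40.3% of sites without a peak (difference 12.4 points, 9.64 to 15.2). The same search found TGTA upstream of 37.4% of all eligible positions. These motifs were searched on the strand of the gene only, and a match is a description of the sequence.

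The second sequence feature, A after the edge, set apart another share of the peaks. Of the unannotated 3′ UTR peaks, 1451 (24.5%, 23.4% to 25.6%) were A-rich, against 14.2% of terminal peaks (difference 10.3 points, 9.13 to 11.6), 39.0% of coding-sequence peaks and 71.7% of intronic peaks. With a run of 25 bases that allows 3 other than A, the order against coding-sequence peaks turned, at 1.86% against 0.265%. By the rule of at least 7 A in 10 bases, 2.03% of the eligible positions were A-rich. The 2 features rarely met. Among peaks with 0 to 4 A in the 10 bases, between 49.5% and 54.5% had a core signal. The share was 25.7% at 6 A, 11.6% at 7 A and 2.42% at 10 A.

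Together the features gave 4 kinds of peaks. A core signal in an A-poor setting was found at 2150 peaks (36.3%) in 1752 genes, with a median pileup of 17. A further 2318 peaks (39.2%) were A-poor without a core signal, also with a median pileup of 17, and 958 of them had another of the 12 hexamers. The A-rich peaks without a core signal numbered 1345 (22.7%) and were lower, with a median pileup of 14. Only 106 peaks (1.79%) had both a core signal and an A-rich sequence. The −log10 q-value was 20 or more for 16.6% of the first kind, 18.8% of the second and 7.21% of the third. Neither any of the 12 hexamers nor an A-rich sequence was found at 1360 peaks (22.98%), close to the 20.3% of terminal peaks (difference 2.67 points, 1.45 to 3.92).

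The base composition of the A-poor peaks without a core signal resembled that of peaks with one on the downstream side. T rose to 42.8% at 23 bases downstream of the edge, against 42.6% at the same position in peaks with a core signal and 40.9% at 20 bases downstream in terminal peaks. A rose to 41.5% at 18 bases upstream, against 55.2% at 20 bases upstream where the core signal had been required. In the A-rich peaks T fell to 4.54% at 5 bases downstream and no such T-rich stretch followed.

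Higher peaks were less often A-rich. The A-rich share was 36.1% (33.2% to 39.2%) in the 991 peaks with up to 9 reads and 11.6% (8.16% to 16.3%) in the 241 peaks with 40 reads or more. The share with a core signal went from 30.5% (27.7% to 33.4%) with up to 9 reads to 43.3% (40.7% to 45.9%) with 20 to 29 reads, and was 32.8% (27.2% to 38.9%) with 40 or more. Terminal peaks had a similar course, with 48.9%, 62.2% and 42.0%. Peaks with neither any of the 12 hexamers nor an A-rich sequence were 22.5% of those with 20 to 29 reads and 39.0% (33.1% to 45.3%) of those with 40 or more. Width differed with the pileup but not in one direction: the median pileup was 11 in the 1805 narrowest peaks, 21 at 121 to 150 bp, 17 at 201 to 300 bp and 27 at 301 to 1000 bp. The part of width in these shares was not tested.

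Within a gene, the pileup of the unannotated peaks was more often below than above that of the terminal peaks. Because the pileup counts distinct positions, this compares how many positions carried reads and does not measure how often each site was used. Of 3063 genes with both, the median pileup of the unannotated peaks was lower in 1878, higher in 1089 and equal in 96. It was thus lower in 63.3% of the genes that differed (exact 95% interval 61.53% to 65.03%), with a median log2 ratio of −0.23. For peaks with a core signal in an A-poor setting the share was 57.6% (55.0% to 60.2%), with a median log2 ratio of −0.12, but by the strongest peak of each it was 64.4% (61.8% to 66.9%), against 64.5% over all unannotated peaks. By the median pileup, the share for A-poor peaks without a core signal was 60.6% (58.1% to 63.0%), with a median log2 ratio of −0.19. That interval overlaps the interval of the A-poor core signal peaks. For A-rich peaks without a core signal the share was 71.8% (68.9% to 74.6%), with a median log2 ratio of −0.39. In 831 genes that held unannotated peaks with and without a core signal, those with the signal were higher in 472, lower in 320 and equal in 39 (59.6%, 56.1% to 63.0%). When the strongest peak of each kind was compared, the share was 54.9% (51.3% to 58.4%).

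The peaks were sparser far along the 3′ UTR than near the stop codon. Their density was 0.529 per kb of eligible stretch (exact Poisson 95% interval 0.481 to 0.579) in the first 250 bp after the stop codon. It was highest at 251 to 500 bp, at 0.559 per kb (0.504 to 0.618). It was 0.374 per kb at 1001 to 2000 bp and 0.219 per kb (0.187 to 0.255) beyond 8000 bp. A-poor peaks with a core signal went from 0.176 per kb in the first 250 bp and 0.193 at 251 to 500 bp to 0.0614 beyond 8000 bp. A-poor peaks without one went from 0.260 to 0.0653 per kb. The A-rich peaks without a core signal stayed between 0.0726 and 0.105 per kb along the whole length. The share of these A-rich peaks accordingly went from 15.9% in the first 250 bp to 38.7% beyond 8000 bp. The median distance from the stop codon was 1629 bp for A-poor peaks with a core signal and 1947 bp for A-rich peaks without one. For each gene the reference transcript was the one with the longest 3′ UTR. Of 5609 peaks that could be placed on it, 1887 (33.6%) lay beyond another annotated end within that 3′ UTR. The rest lay ahead of the first such end. Ends elsewhere in the gene were not counted.

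The number of peaks in a gene followed the length of 3′ UTR in which one could be found. Of 7654 genes with an eligible stretch and a terminal peak, 40% had at least 1 unannotated peak and 19.1% had at least 1 with a core signal in an A-poor setting. The first share was 7.22% in genes with up to 500 bp of eligible stretch, 45.1% at 1001 to 2000 bp and 90.2% above 8000 bp. Per kb, the count was 0.349 up to 500 bp, 0.446 at 501 to 1000 bp and 0.261 above 8000 bp. In 334 genes with more than 1 A-poor core signal peak, 398 neighbouring pairs lay a median of 1161.5 bp apart, and the most such peaks in 1 gene was 5.

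The A-poor core signal peaks with the highest pileups, 1 per gene, are a description, since they were picked by pileup. The highest was in SRPRB, which encodes a subunit of the receptor for the signal recognition particle. Its peak had a pileup of 75, lay 824 bp after the stop codon in a 3′ UTR of 1726 bp and followed ATTAAA, which started 27 bases upstream of the edge. The only terminal peak of the gene had a pileup of 29. SOX11, a transcription factor of the sympathetic lineage, had a peak with a pileup of 70 at 1398 bp of a 3′ UTR of 7338 bp, with AATAAA 22 bases upstream, against 30 and 31 at its terminal peaks. The peak of TMEM242 had a pileup of 69 and lay 322 bp after the stop codon, against 19 at the terminal peak.

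Among the next were peaks in genes of several functions. ST13, which encodes a cochaperone of HSP70, had a pileup of 66 at 361 bp of 2003 bp and no terminal peak. PELI2, an E3 ubiquitin ligase, NAA50, an N-terminal acetyltransferase, and SSTR2, a somatostatin receptor, each had a pileup of 57, against at most 35, 25 and 23 at their terminal peaks. FBXW2, a substrate receptor of a ubiquitin ligase, had 56 at 314 bp of a 3′ UTR of 7585 bp, against 38 at the terminal peak. HNRNPA2B1, an RNA-binding protein, had 55 against 47. QRSL1, a subunit of the mitochondrial glutamyl-tRNA amidotransferase, had 54 against 11. METTL2A, a tRNA methyltransferase, had 54, and IMPA1, an inositol monophosphatase, had 62, both in genes without a terminal peak. Of the 15 genes in this ranking, 5 had no terminal peak as counted here, which does not show that their annotated ends lack reads. In the other 10 the unannotated peak was higher than every terminal peak counted for the gene.

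3 of the 15 were peaks whose 3′ edge lay in the window of an annotated end. The peaks of IGFBP5, which encodes a binding protein of insulin-like growth factors (pileup 68), and of DAZAP1, an RNA-binding protein (pileup 58), were 403 and 669 bp wide and ended 2 and 3 bp before an annotated end. The AATAAA found 19 and 24 bases upstream of these edges is thus at the annotated end, and the summits lay further upstream. The edge of the peak of ARPP19, a phosphatase inhibitor (pileup 56), lay 148 bp before one.

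A-rich peaks with none of the 12 hexamers were also picked by a high pileup. LRATD1 had a pileup of 62 and 10 A in the 10 bases after the edge, at a local background of 14.1 reads, against 42 to 54 at its 3 terminal peaks. UBE2H, a ubiquitin-conjugating enzyme, had 59 and 7 A, NFIB, a transcription factor, had 52 and 9 A, and YWHAB, a 14-3-3 protein, had 50 and 9 A. Whether such peaks are cut RNA ends or priming within the RNA was not tested.

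**Figure D2:**
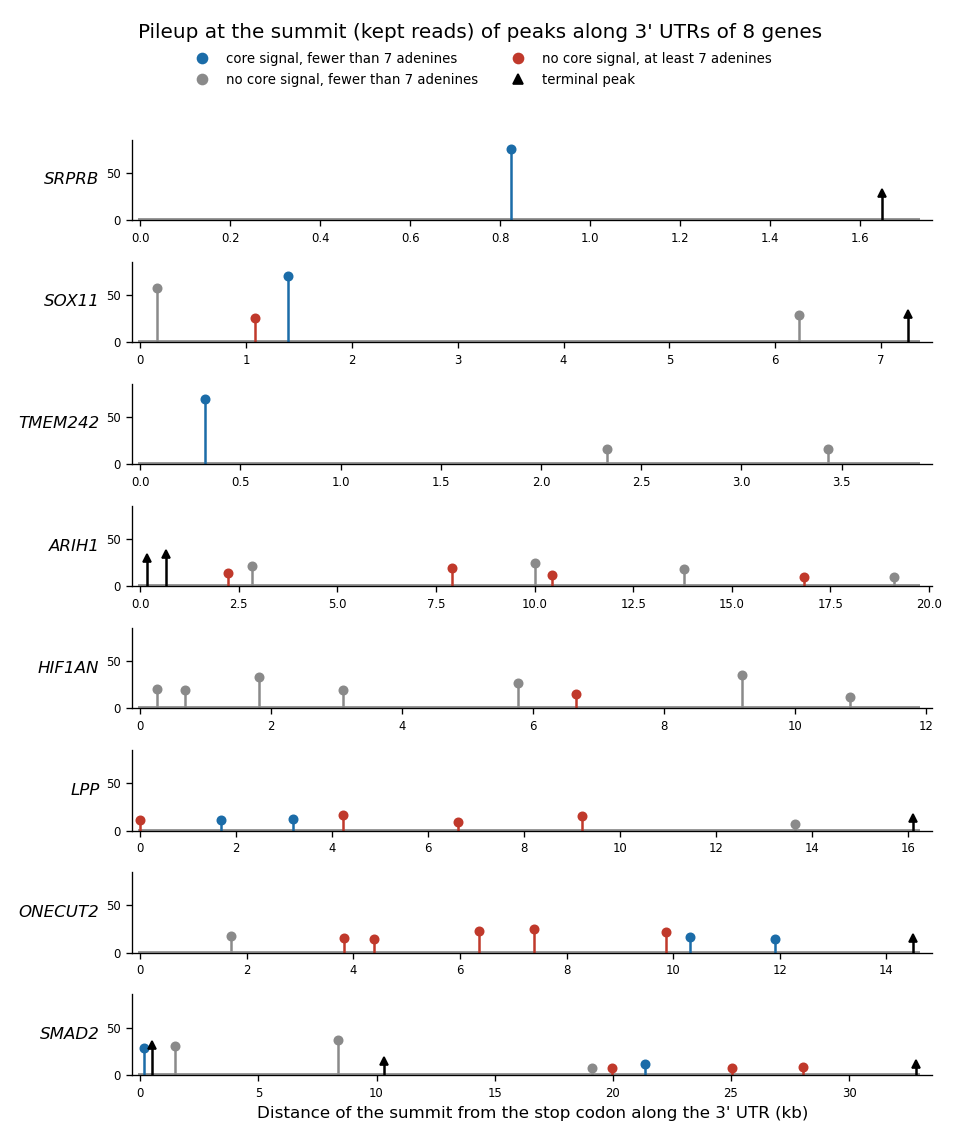
Summits of peaks along the 3′ UTR of 8 genes, with distance from the stop codon in kb (horizontal axis, 1 scale per gene) and pileup in kept reads (vertical axis). Circles are unannotated peaks coloured by kind, triangles are terminal peaks placed on the same transcript; the grey line is the 3′ UTR. The unannotated peaks of SRPRB, SOX11 and TMEM242 reach 75, 70 and 69 reads, and those of the other 5 genes stay at or below 37.

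The genes with the most unannotated peaks, 8 each, had long 3′ UTRs and mostly peaks without a core signal. HIF1AN, which encodes the asparagine hydroxylase that inhibits HIF1A, had pileups of 21, 19, 33, 19, 27, 15, 35 and 12 from the stop codon onward in a 3′ UTR of 11861 bp. None had a core signal, 1 was A-rich, and the gene had no terminal peak. ARIH1, an E3 ubiquitin ligase, had no core signal at its 8 peaks either, 4 of them A-rich, with pileups of 10 to 25 against 13 to 34 at its 3 terminal peaks. LPP, a LIM domain protein of focal adhesions, and ONECUT2, a homeobox transcription factor, each had 2 peaks with a core signal and 5 A-rich ones. The 2 core signal peaks of ONECUT2 lay at 10316 and 11918 bp with pileups of 17 and 15, against 16 at the terminal peak. SMAD2, which transmits TGF-β signals, had 2 core signal peaks. One lay 141 bp after the stop codon with a pileup of 28, and the other lay at 21364 bp with 12, against 11 to 32 at its 3 terminal peaks. The edge of its highest unannotated peak (pileup 37, 616 bp wide) lay in an end window.

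Lists of genes were counted against the shares of 40% and 19.1% over all 7654 genes, without a test and without matching for stretch length. Both shares rose with the eligible stretch. They were 29.2% and 12.3% at 501 to 1000 bp, 45.1% and 18.9% at 1001 to 2000 bp, and 63.1% and 29.1% at 2001 to 4000 bp. The median eligible stretch over all these genes was 1150.5 bp and the median pileup of their unannotated peaks was 16. Of the cleavage and polyadenylation factors, 13 had an eligible stretch and a terminal peak. Among these, 8 had an unannotated peak and 5 had one with a core signal in an A-poor setting. Their median stretch of 2157 bp fell in the class of 2001 to 4000 bp, and their median pileup was 18.5. SSU72, a phosphatase of the polymerase II tail, had a pileup of 28 against 11 and 23 at its terminal peaks. CPSF6, the partner of NUDT21 in cleavage factor Im, had 26 against 23 and 28. CSTF1, a subunit of the cleavage stimulation factor, had 20 against 20, with its edge in an end window. WDR33, the subunit that contacts AATAAA, had 13 against 19 to 36, and XRN2, the nuclease that ends transcription, had 8 against 22. NUDT21 itself had 2 unannotated peaks, neither with an A-poor core signal, and CPSF2 had 5, likewise none of that kind.

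RNA-binding protein genes expressed in neurons gave 24 genes, 16 with an unannotated peak and 10 with one of the A-poor core signal kind. Their median stretch was 2681 bp, in the length class where 63.1% and 29.1% of all genes had such peaks, and their median pileup was 21. ELAVL3 and ELAVL4, neuronal Hu proteins that bind AU-rich elements, had peaks of 32 and 28 against highest terminal pileups of 40 and 52. PUM2, which binds UGUA elements in 3′ UTRs, had 29 against at most 65. PTBP2, the neuronal polypyrimidine tract binding protein, had 26 against at most 21, and FXR1 25 against at most 37. In PTBP2 the unannotated peak was higher than each of the 3 terminal peaks, and in the other 4 it was lower than the highest.

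Of 16 adrenergic neuroblastoma transcription factors, 11 had an unannotated peak and 3 (18.75%, near the 19.1% of all genes) had one with an A-poor core signal. Their median stretch was 988 bp, and the median pileup of their 17 peaks was 31. SOX11 is described above. ISL1, a LIM homeobox factor, had a peak of 46 against 16 at the terminal peak, with its edge in an end window, and SATB1, a chromatin organiser, had 22 against 13 to 42. MYCN, HAND1, GATA2, GATA3 and TFAP2A had none, in eligible stretches of 241, 633, 511, 25 and 137 bp. Of 21 neuronal cytoskeleton genes, 9 had an unannotated peak and 3 one with an A-poor core signal, with a median stretch of 1467 bp and a median pileup of 23. MARCKS, an actin-binding substrate of protein kinase C, had 54 against 55 at the terminal peak. NEFL, the light neurofilament subunit, had 24 against 13, and DCLK1, a microtubule-associated kinase, had 9 against 13 and 23. MAPT, MAP4 and INA had none, in stretches of 1660, 2264 and 1476 bp.

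The list of 12 genes known for tandem poly(A) sites in one 3′ UTR had 6 with an unannotated peak and 0 with an A-poor core signal, at a median stretch of 1879 bp and a median pileup of 21. An annotated site is outside the rule. DICER1 and RAC1 had 1 unannotated peak each, NRAS 2 and IGF2BP1 4.

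The DNA damage response genes of the study had shares close to those of all genes, but a shorter median stretch. Of 162 names, 146 matched and 69 had an eligible stretch and a terminal peak. Among the 69, 29 (42.0%) had an unannotated peak and 14 (20.3%) one with an A-poor core signal, at a median stretch of 684 bp and a median pileup of 18. Over all genes with 501 to 1000 bp of stretch, the shares were 29.2% and 12.3%. RAD18, a ubiquitin ligase of post-replication repair, had a peak of 34 at 1407 bp of 4282 bp, with ATTAAA 23 bases upstream, against 13 at the terminal peak. POLK, a translesion polymerase, had 26 against 10 and 14, at 3094 bp of a 3′ UTR of 11973 bp. FANCF, a Fanconi anaemia core complex subunit, had 26 against 15, 63 bp after the stop codon. Outside these 69, since it had no terminal peak, XRCC5 was named by the same rule. The peaks of XRCC5, the Ku80 subunit of end joining (pileup 40), and MMS19, an iron-sulfur cluster assembly factor (pileup 24), ended 4 and 2 bp before an annotated end. BRCA1, BRCA2, ATM and FANCD2 had none in eligible stretches of 341, 546, 2163 and 684 bp.

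The targeted kinases each had unannotated peaks with a core signal. The peak of CDK12 had a pileup of 21 against 14 to 22 at its 3 terminal peaks, and lay 2627 bp after the stop codon in a 3′ UTR of 3228 bp. CDK13 had a peak with a pileup of 13 at 2121 bp of a 3′ UTR of 4600 bp, with ATTAAA 16 bases upstream, against 10 and 34 at its terminal peaks. Its second peak had a pileup of 6 and lay in the 3′ UTR of another transcript. The 3′ UTR of CCNK, their cyclin partner, had no eligible stretch. Since the reads of knockdown and control libraries were pooled, these heights do not show the level of either kinase in any group.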

How the data were processed

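The libraries were made with the QuantSeq 3′ mRNA REV kit. The authors trimmed the reads with bbduk, aligned them to GRCh38 with STAR 2.5.1b, downsampled the knockdown libraries, processed in 2 batches, to the smallest one, merged all 10 and called peaks with MACS2 2.1.1, extending reads to 100 bp. Batches, groups and replicates cannot be told apart in the merged list. The deposited fold (a ratio of the pileup plus 1 to the local background plus 1), the deposited −log10 p-value, the deposited −log10 q-value and the deposited score (not used further) are 1 value per peak. The peak calling of the authors keeps 1 read per position and strand by default, so that pileups count distinct positions and level off.

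The pileup and background were recovered from the deposited fold and p-value (largest miss of the −log10 p-value 0.000146), with strand from the gene, because the list has none. GENCODE 44 was used, whereas the study used GENCODE 27. Hexamers were read from GRCh38 on the strand of the gene. Steps were tested on simulated data. Members, lists and windows were chosen with earlier results of these data known. Named genes were the 15 with the highest A-poor core signal peak, the 5 with the most peaks, the 5 with the highest A-rich peak without a hexamer, CDK12, CDK13 and CCNK, and up to 5 per list by pileup; genes of a list named for having no peak or no core signal peak were chosen after their values were seen. Some genes that this rule names are not reported here. Python 3.11.15, numpy 2.4.6, scipy 1.17.1, pandas 2.3.3, pysam 0.24.0, samtools 1.23.1 and matplotlib 3.10.9 were used.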

Additional observations from a re-analysis of the deposited data

How the results depend on the processing

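No paired analysis was possible because the peak list holds no value per library, and for the same reason no library could be left out. Of 68 alternatives, 40 were added after the data were seen, and 26 stayed within the interval of the reported share or within 1.5 times the reported count. The core signal share was 4.11% when distances were counted from the summit, which lies upstream of the cleavage site, 57.1% with any of the 12 hexamers and 41.9% with a window of 10 to 40 bases. With −log10 q-values of 5 or more it was 39.7%, with 20 or more 41.6%, and it was 40.3% with only the strongest peak per gene and 40.7% with peaks of 100 to 120 bp. With −log10 q-values of 20 or more, 912 peaks were left and 13.0% were A-rich. The A-rich share was 32.3% with at least 6 A, 1.86% with a 25-base run allowing 3 bases other than A, 22.03% with the strongest peak per gene and 23.1% with windows of 100 bp on each side of annotated ends. Unannotated peaks were lower than terminal peaks in 60.98% of genes with −log10 q-values of 5 or more and in 57.6% with A-poor core signal peaks alone. Core signal peaks were higher than others in 54.9% of genes by the strongest peak. The share of AATAAA with a peak was 13.7% with 10 to 40 bases, 10.1% over all genes with an eligible stretch and 11.01% with −log10 q-values of 5 or more. The differences in core signal share from terminal, coding-sequence and intronic peaks were recomputed. With −log10 q-values of 20 or more they were −14.4, 35.4 and 22.5 points, and with any of the 12 hexamers −11.8, 35.4 and 34.5 points. From the summit they were 0.33, 2.37 and 1.60 points, so that the first turned. Against coding-sequence peaks the difference was 33.5 points with −log10 q-values of 5 or more and 34.2 points with 10 to 40 bases. The differences in A-rich share from the same 3 classes were 12.2, −31.6 and −49.99 points with at least 6 A. With the 25-base run they were 0.68, 1.59 and −7.02 points, so that the second turned. With −log10 q-values of 20 or more they were 7.24 points against terminal and −23.9 points against coding-sequence peaks, and with 5 or more −16.9 points against coding-sequence and −49.6 points against intronic peaks. Without peaks that met the removal criteria of the study in any class, the A-rich difference from intronic peaks was −45.9 points, and the other 5 differences stayed within their intervals. A-poor core signal peaks were lower than terminal peaks in 64.4% of genes by the strongest peak. No other direction turned among these contrasts and the within-gene comparisons. The causes were not tested where the construction of the alternative does not give them.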
